A study of Drosophila melanogaster with 12 samples.

Results

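The distribution of RNA polymerase II phosphorylated on Serine 5 (Pol II S5) along the chromosomes was compared between LaminB knockdown (LaminB KD) and mock-treated Kc167 cells. The comparison uses 2 LaminB KD and 2 mock libraries, chosen by the treatment named in their labels, out of 6 immunoprecipitated libraries and 12 samples in the series. The LaminB KD and mock libraries held 8541 and 5108 peaks in LaminB KD replicates 1 and 2 and 6435 and 7162 peaks in mock replicates 1 and 2. The 7 chromosomes were divided into 280 bins of 500 kb, and 248 bins with a mean of 5 or more peaks over the 4 libraries were compared. In the study, LaminB KD served to show which changes were specific to the knockdown of AGO2 (AGO2 KD). The 2 AGO2 KD libraries are labelled siAGO2, for small interfering RNA, whereas the LaminB KD libraries are labelled dsLaminB. They are given only beside the results they touch.

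Kc167 is a female Drosophila melanogaster line of embryonic origin with hemocyte character. LaminB KD cells were transfected with double-stranded RNA against LaminB, whereas mock cells went through the transfection with no RNA, so that a double-stranded RNA against an unrelated sequence was not part of this comparison. All cells were collected 3 days later, and chromatin was precipitated with the same antibody in both groups. The labels do not say whether the replicates came from separate cultures, and the spread between them may be technical. Lamins are intermediate filament proteins that line the inner face of the nuclear envelope. In Drosophila, LaminB is the lamin of most cell types. Gene-poor, late-replicating and silent chromatin, including clusters of tissue-specific genes and sequence near the centromeres, is known to contact the lamina, whereas active genes mostly lie away from it. Serine 5 phosphorylation is placed on the C-terminal repeats of Pol II at initiation and is carried into the early part of genes.

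Only a few whole peaks were particular to either group, and the sequences of some are printed here because they are the sites where the peak lists differ outright. Of 5108 peaks of LaminB KD replicate 2, the shorter LaminB KD list, 6 met a peak of the other LaminB KD replicate and of neither mock library. Of 6435 peaks of mock replicate 1, 30 met a peak of the other mock replicate and of neither LaminB KD library. A LaminB KD peak could count only where the shortest list held it, and a mock peak only where the longest list held none. The counts of 6 and 30 therefore give no balance of gain and loss. The 6 LaminB KD peaks lay in vri, which encodes a circadian transcription factor, in Tim17b, a subunit of the mitochondrial inner membrane translocase, in Tbh, the enzyme of octopamine synthesis, in the stress-responsive lncRNA:Hsromega, in CG46315 and CG6424, and in an intergenic stretch of 3L. They had a median width of 168.5 bp and a median fold over local background of 3.00, and none of them was under a peak in either AGO2 KD library. The 30 mock peaks had a median width of 192 bp and a median fold of 2.70, and 1 of them lay on chromosome 4. Of these 30, 26 were under no peak in either AGO2 KD library, CG33941 and N among them, so that the lack of a peak there was not particular to LaminB KD. The reference sequences under 4 LaminB KD peaks and 2 mock peaks were read from the RefSeq Release 6 genome (dm6, forward strand), with annotated exonic bases in capitals and intronic bases in lower case.
LaminB KD peaks without a mock peak:
vri intron, chr2L:5292964-5293111: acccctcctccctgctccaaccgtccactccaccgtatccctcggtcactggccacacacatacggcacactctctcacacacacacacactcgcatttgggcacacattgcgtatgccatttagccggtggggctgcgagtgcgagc
Tim17b intron, chr3R:3737668-3737967: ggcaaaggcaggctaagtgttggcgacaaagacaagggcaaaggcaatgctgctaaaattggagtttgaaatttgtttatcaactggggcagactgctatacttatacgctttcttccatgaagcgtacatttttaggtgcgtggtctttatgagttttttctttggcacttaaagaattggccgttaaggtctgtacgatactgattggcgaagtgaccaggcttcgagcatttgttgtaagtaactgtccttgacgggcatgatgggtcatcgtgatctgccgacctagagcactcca
lncRNA:Hsromega exon, chr3R:21317470-21317644: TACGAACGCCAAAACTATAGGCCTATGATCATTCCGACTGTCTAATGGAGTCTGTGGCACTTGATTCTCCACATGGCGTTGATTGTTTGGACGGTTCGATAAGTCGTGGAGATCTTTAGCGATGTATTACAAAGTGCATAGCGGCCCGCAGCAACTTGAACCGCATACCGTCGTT
Tbh intron, chrX:8018703-8018864: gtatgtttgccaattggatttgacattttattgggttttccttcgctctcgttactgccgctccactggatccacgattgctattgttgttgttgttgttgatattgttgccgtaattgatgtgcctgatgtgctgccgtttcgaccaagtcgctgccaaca
Mock peaks without a LaminB KD peak:
CG33941 intron, chr4:468178-468342: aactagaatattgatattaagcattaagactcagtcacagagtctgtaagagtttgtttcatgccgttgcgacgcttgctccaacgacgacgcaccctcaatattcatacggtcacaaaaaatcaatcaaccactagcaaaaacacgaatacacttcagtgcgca
N exon, chrX:3169366-3169518: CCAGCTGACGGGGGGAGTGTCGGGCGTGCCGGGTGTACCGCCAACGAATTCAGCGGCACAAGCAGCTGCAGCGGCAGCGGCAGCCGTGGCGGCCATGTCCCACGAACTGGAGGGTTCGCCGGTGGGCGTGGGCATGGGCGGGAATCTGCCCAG

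The vri peak covered 148 bp with 60.1% G and C and included a run of alternating c and a. Its fold was 3.31 in LaminB KD replicate 1 and 3.09 in LaminB KD replicate 2. The Tim17b peak, of 300 bp, lay in pericentromeric 3R, with folds of 2.39 and 3.01 in LaminB KD replicates 1 and 2. The CG33941 peak of chromosome 4 covered 165 bp, with folds of 2.96 and 2.48 in mock replicates 1 and 2. The N peak of 153 bp lay in a coding exon of Notch, a receptor of cell-cell signalling, with 70.6% G and C and folds of 2.55 and 2.37 in mock replicates 1 and 2. The median fold over all peaks of a library was 2.81 and 3.31 in LaminB KD and 3.58 and 3.39 in mock. The folds at CG33941, N and Tim17b lay below the medians of their libraries, and at vri the fold of LaminB KD replicate 1 lay above.

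The targeted gene was examined first. Lam (FBgn0002525, chromosome 2L, 5542480 to 5546642, dm6) encodes LaminB, and 82.5% and 23.5% of its length lay under peaks in LaminB KD replicates 1 and 2, against 72.5% and 77.4% in mock replicates 1 and 2. The groups overlapped, and Pol II S5 on Lam does not check the knockdown, since double-stranded RNA acts on the transcript. The 500 kb bin of Lam held 0.372% and 0.536% of the covered length in LaminB KD libraries and 0.449% and 0.404% in mock libraries, which also overlapped (exact permutation p = 1, n = 2 each). Of 12 hemocyte markers, 8 and 7 had a peak in LaminB KD libraries and 8 and 8 in mock libraries. The GATA factor gene srp, its partner gene ush, and Pxn, Col4a1, vkg, Ppn and Tig were covered in every library. Hml was covered in all but LaminB KD replicate 2, and NimC1, eater, He and Sr-CI were at 0 in all 4 libraries. Of 5 neuron markers, 2 and 0 had a peak in LaminB KD and 1 and 2 in mock, and of 5 muscle markers, 2 and 1 had a peak in LaminB KD and 2 and 2 in mock. Of 4 annotated germline markers, 1 and 1 had a peak in LaminB KD and 1 and 2 in mock. Among them, vas was covered in every library, over 24.9% and 10.0% in LaminB KD and 17.7% and 18.1% in mock.

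The 2 LaminB KD libraries differed widely in the size of their lists. Peaks covered 14.6 and 4.19 Mb in LaminB KD replicates 1 and 2, against 8.27 and 10.5 Mb in mock replicates 1 and 2. The mean peak width was 1711 and 821 bp in LaminB KD and 1286 and 1465 bp in mock. LaminB KD thus holds both the largest and the smallest list of the series, and read depth is unknown from the lists. For this reason all regional values are shares, in percent, of the library's own covered length or own number of peaks. Coverage of single genes is given in percent of the gene's length and is not scaled in this way. It therefore carries the difference in list size.

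The chromosome arms took nearly the same shares in both groups. Chromosome X held 19.9% and 19.0% of the covered length in LaminB KD replicates 1 and 2, against 18.6% and 19.2% in mock replicates 1 and 2. The mean difference was 0.558 percentage points, about the size of the pooled SD of 0.524, and the groups overlapped (exact permutation p = 0.667, n = 2 each). By number of peaks, X held 18.7% and 18.5% in LaminB KD and 18.3% and 18.4% in mock, a difference of 0.231 points in which both LaminB KD libraries lay above both mock libraries. Exact permutation of 2 libraries against 2 has 6 labelings and cannot give a p below 0.333, so that no single region could pass 0.05 by it. On 2R, peaks took 20.7% and 20.5% of the covered length in LaminB KD, against 20.8% and 20.8% in mock. On 3L, they took 18.9% and 18.5% in LaminB KD, against 19.1% and 18.9% in mock. Both arms were lower in both LaminB KD libraries, with differences of -0.195 and -0.287 points (exact permutation p = 0.333 each, n = 2 per group), and by number of peaks 2R remained lower while 3L had a difference of 0.372 points in the other direction with overlapping groups. With the 5108 highest-scoring peaks of each library, 3L was still lower in both LaminB KD libraries, whereas 2R took 20.4% and 20.5% in LaminB KD and 20.8% and 20.5% in mock, with overlap.

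The shares of 2L, 3R and chromosome 4 overlapped between the groups. Chromosome 2L held 15.5% and 16.2% of the covered length in LaminB KD and 16.0% and 15.6% in mock. Chromosome 3R held 24.6% and 25.3% in LaminB KD and 25.1% and 25.1% in mock. On both arms the 2 LaminB KD libraries lay on either side of the mock libraries. Chromosome 4, a small and largely heterochromatic chromosome whose genes are nevertheless expressed, held 0.482% and 0.392% of the covered length in LaminB KD and 0.467% and 0.454% in mock. It carried 76 and 29 peaks in LaminB KD, or 0.890% (95% Wilson interval 0.712% to 1.11%) and 0.568% (0.396% to 0.814%) of the list, against 52 and 58 peaks in mock, or 0.808% (0.617% to 1.06%) and 0.810% (0.627% to 1.05%). These intervals cover counting error only. With the upper 50% of peaks by score, the groups separated on all 3 and on X, with differences of -0.588 points on 2L, -0.481 on 3R, 0.0693 on chromosome 4 and 0.843 on X (exact permutation p = 0.333 each, n = 2 per group).

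**Figure D1:**
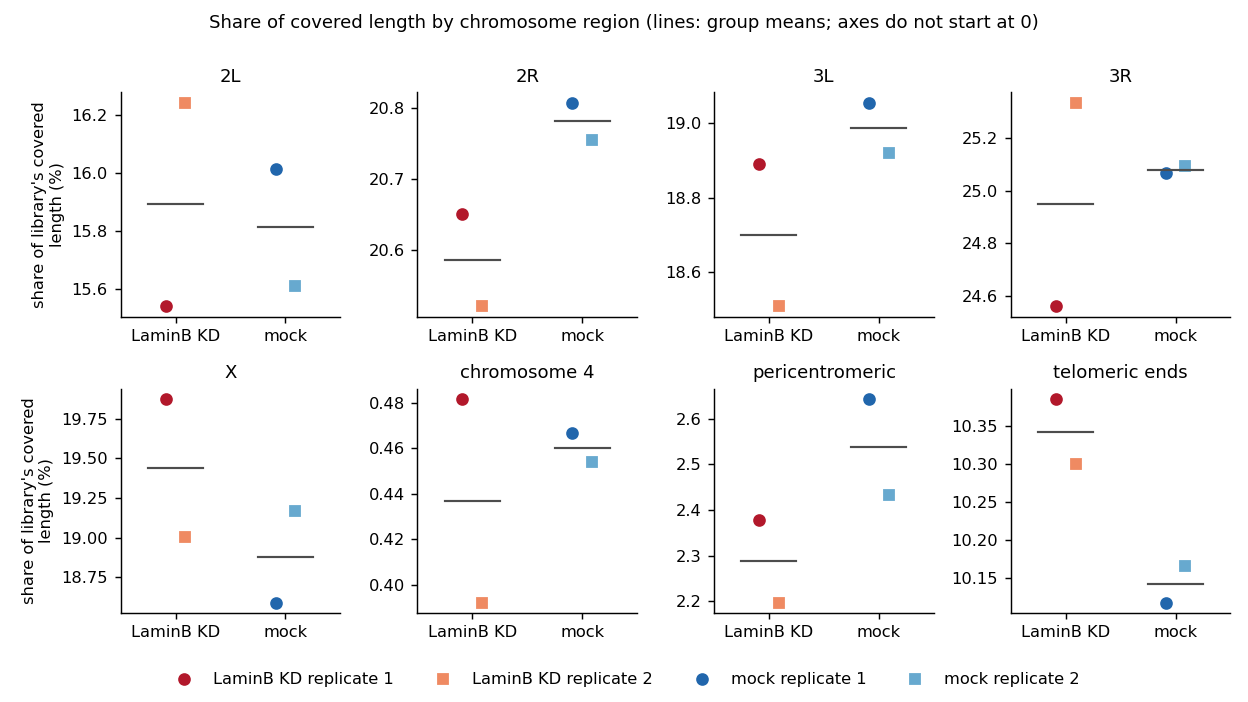
Share of each library's covered length (y axis, percent, not starting at 0) on the 5 large arms, chromosome 4, the pericentromeric sequence and the telomeric ends. Points are libraries (circles replicate 1, squares replicate 2), LaminB KD on the left and mock on the right of each panel, and lines are group means; the groups separate on 2R, on 3L, in the pericentromeric sequence and at the telomeric ends, and overlap elsewhere.

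Pericentromeric sequence held a smaller share of the covered length in both LaminB KD libraries. It was set as 2L from 22 Mb, 2R up to 6 Mb, 3L from 23 Mb, 3R up to 4 Mb and X from 22 Mb, in all 18.2 Mb with 219 protein-coding genes. Its share was 2.38% and 2.20% in LaminB KD replicates 1 and 2, against 2.64% and 2.43% in mock replicates 1 and 2. The difference was -0.250 points with a pooled SD of 0.139 (exact permutation p = 0.333, the smallest possible, n = 2 each). It was 2.41% and 2.16% in the AGO2 KD libraries, which had another type of RNA and are set against the same mock libraries. All 4 knockdown libraries thus lay below both mock libraries. With the 5108 highest-scoring peaks of each library, the share was 2.05% and 2.20% in LaminB KD and 2.61% and 2.27% in mock, still without overlap. The number of peaks gave another picture, with 371 and 141 pericentromeric peaks in LaminB KD, or 4.34% (95% Wilson interval 3.93% to 4.80%) and 2.76% (2.35% to 3.25%), against 256 and 303 in mock, or 3.98% (3.53% to 4.48%) and 4.23% (3.79% to 4.72%). Here LaminB KD replicate 1 lay above both mock libraries and LaminB KD replicate 2 below them. The pericentromeric peaks were narrow, with a mean width of 936 and 654 bp in LaminB KD and 854 and 842 bp in mock.

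Within the pericentromeric sequence the arms differed. On 2R it held 1.05% and 0.898% of the covered length in LaminB KD, against 1.19% and 1.06% in mock. On 3L it held 0.478% and 0.389% in LaminB KD, against 0.531% and 0.534% in mock. Both were lower in both LaminB KD libraries. The groups overlapped in pericentromeric 2L (0.479% and 0.554% in LaminB KD, 0.577% and 0.517% in mock), in 3R (0.0997% and 0.0381% in LaminB KD, 0.0758% and 0.0739% in mock) and in X (0.271% and 0.317% in LaminB KD, 0.273% and 0.248% in mock). Of 19 pericentromeric bins that passed the filter, 5 lay lower in both LaminB KD libraries and 0 lay higher, or 26.3% and 0%, beside 15.7% and 13.3% of all bins (counts without a test across bins). By number of peaks, 2 of the 19 lay lower and 0 higher, beside 14.5% and 16.5% of all bins. Only 1 was lower by both measures. The 5 bins held the genes CG12567 and Spf45 (2L, 23 to 23.5 Mb), l(2)41Ab and CG40191 (2R, 1 to 1.5 Mb), CG17683 and IntS3 (2R, 4 to 4.5 Mb), RpL10 and ND-MLRQ (3L, 23 to 23.5 Mb) and l(3)80Fg (3L, 25.5 to 26 Mb) as their most covered genes. The bin of CG17683 and IntS3, which encodes a subunit of the Integrator complex, held 0.149% and 0.115% in LaminB KD and 0.171% and 0.177% in mock.

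**Figure D2:**
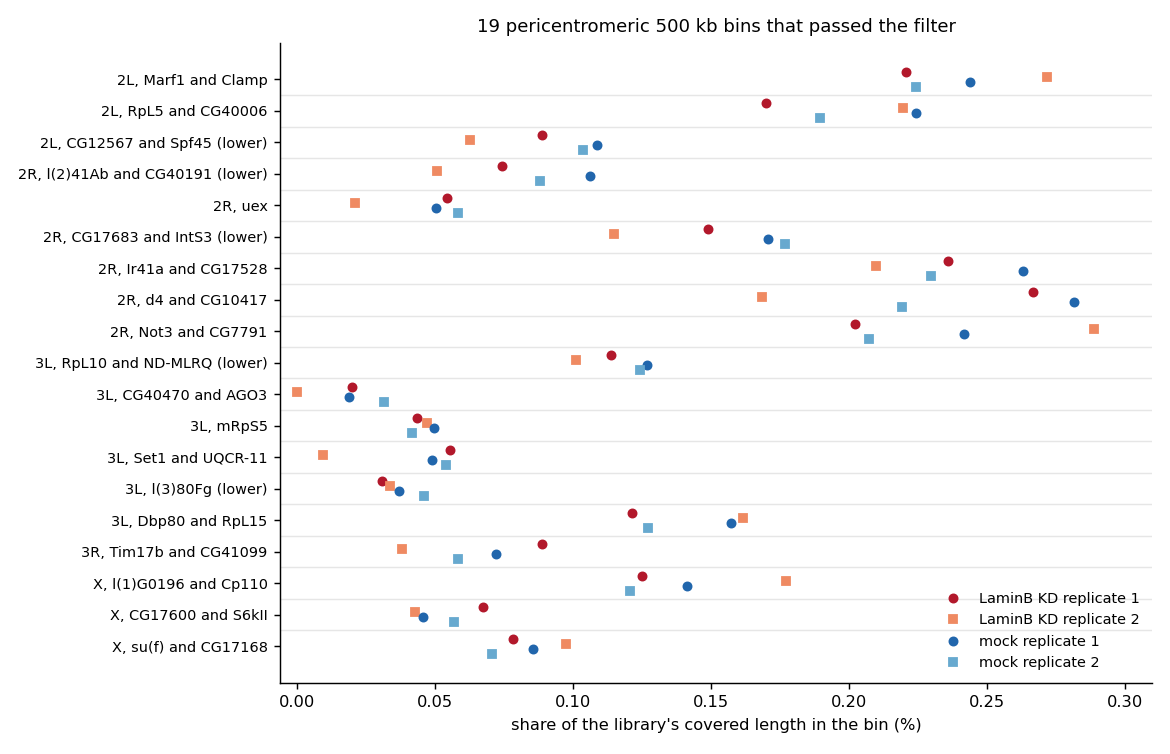
Share of each library's covered length (x axis, percent) in the 19 pericentromeric 500 kb bins that passed the filter, named by arm and their most covered genes, with LaminB KD points drawn above mock points in each row. In the 5 rows marked lower, both LaminB KD points lie left of both mock points, and in the other 14 the groups overlap.

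Among single pericentromeric genes, RpL15 (3L), RpL5 (2L) and RpL10 (3L), which encode large subunit ribosomal proteins, had a peak in every library. Peaks covered 100% and 99.4% of RpL15 in LaminB KD and 100% and 100% in mock, and 100% and 62.1% of RpL10 in LaminB KD and 100% and 100% in mock. RpL5 was covered over 74.7% and 53.7% in LaminB KD and 59.5% and 58.1% in mock. Very long genes such as AGO3, a 135048 bp Argonaute gene of the piRNA pathway, were covered over 0.524% and 0% in LaminB KD and 0.439% and 0.512% in mock. Of the 219 pericentromeric genes, 130 and 88 had a peak in LaminB KD and 125 and 126 in mock.

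The telomeric ends, taken as the outer 2 Mb of each of the 5 large arms, held a larger share of the covered length in both LaminB KD libraries. Their share was 10.4% and 10.3% in LaminB KD, against 10.1% and 10.2% in mock, a difference of 0.200 points with a pooled SD of 0.0493 (exact permutation p = 0.333, the smallest possible, n = 2 each). The AGO2 KD libraries held 10.2% and 10.1%. By number of peaks the shares were 8.75% and 9.38% in LaminB KD and 8.78% and 8.67% in mock, which overlapped. With the 5108 highest-scoring peaks of each library, the difference was 0.110 points and the groups overlapped. Of 19 telomeric bins tested, 4 lay higher and 3 lower in both LaminB KD libraries, or 21.1% and 15.8%, beside 13.3% and 15.7% of all bins.

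The gene-poorest bins, a class in which lamina contacts are known to be frequent, did not separate the groups. The bins outside the pericentromeric sequence were divided into 4 classes of 57 bins by their number of protein-coding genes, from 9 to 47 genes in the poorest to 73 to 122 in the richest. The poorest class held 14.2% and 12.96% of the covered length in LaminB KD and 13.2% and 13.5% in mock, a difference of 0.187 points with a pooled SD of 0.627. The 2 LaminB KD libraries lay on either side of both mock libraries. The richest class held 34.5% and 34.0% in LaminB KD and 34.6% and 34.5% in mock, a difference of -0.295 points with both LaminB KD libraries lower (exact permutation p = 0.333, n = 2 each). By number of peaks the richest class held 30.7% and 32.7% in LaminB KD and 32.1% and 30.9% in mock, with overlap. The class next to the poorest held 22.1% and 22.3% of the peaks in LaminB KD and 21.4% and 21.6% in mock. This difference was 0.673 points with a pooled SD of 0.115 (exact permutation p = 0.333, n = 2 each). By covered length the groups overlapped in that class. Across the 248 bins, the mean share followed the number of genes (Pearson r = 0.740, Spearman rho = 0.761, a description over bins of the same 4 libraries).

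Bin by bin, the LaminB KD replicates lay further apart, by the median, than the group means did. Of 248 bins, 33 had both LaminB KD shares above both mock shares (13.3%) and 39 had both below (15.7%). By number of peaks, 41 lay above (16.5%) and 36 below (14.5%). Of the 6 labelings of 2 libraries against 2, 1 puts LaminB KD above and 1 below. If the labels made no difference, 1 in 6 bins would thus lie above and 1 in 6 below, and none of these shares exceeds that. Only 11 bins lay above and 10 below by both measures, and 7 went in opposite directions, 2 of them above by covered length and 5 below. The median difference of group means, regardless of sign, was 0.0221 points for a median share of 0.385%, beside 0.0496 points between the LaminB KD replicates and 0.0195 points between the mock replicates. Means of 2 libraries vary less than single libraries, so that the first value is not a like measure to the other 2. In 44 bins the difference of group means was larger than both gaps between replicates. The fit across all bins with limma called 0 of 248 bins (0%) at an adjusted p under 0.05, both for covered length and for number of peaks, with 1 and 6 bins at an unadjusted p under 0.05 and smallest adjusted p of 0.987 and 0.997. The bins with separated groups are therefore descriptions of these 4 libraries.

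By arm and by covered length, X had the largest surplus of higher bins, with 9 higher and 4 lower of 47 tested. On 3L, 4 were higher and 10 lower of 51, and on 2R, 5 were higher and 9 lower of 45. The counts were 8 higher and 7 lower of 45 on 2L, 7 and 9 of 57 on 3R, and 0 and 0 of 3 on chromosome 4. By number of peaks this order did not hold. Then 11 were higher and 10 lower on X, 10 and 4 on 3L and 4 and 4 on 2R. The other counts were 8 and 4 on 2L, 8 and 14 on 3R, and 0 and 0 on chromosome 4. The difference between arms was not tested.

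**Figure D3:**
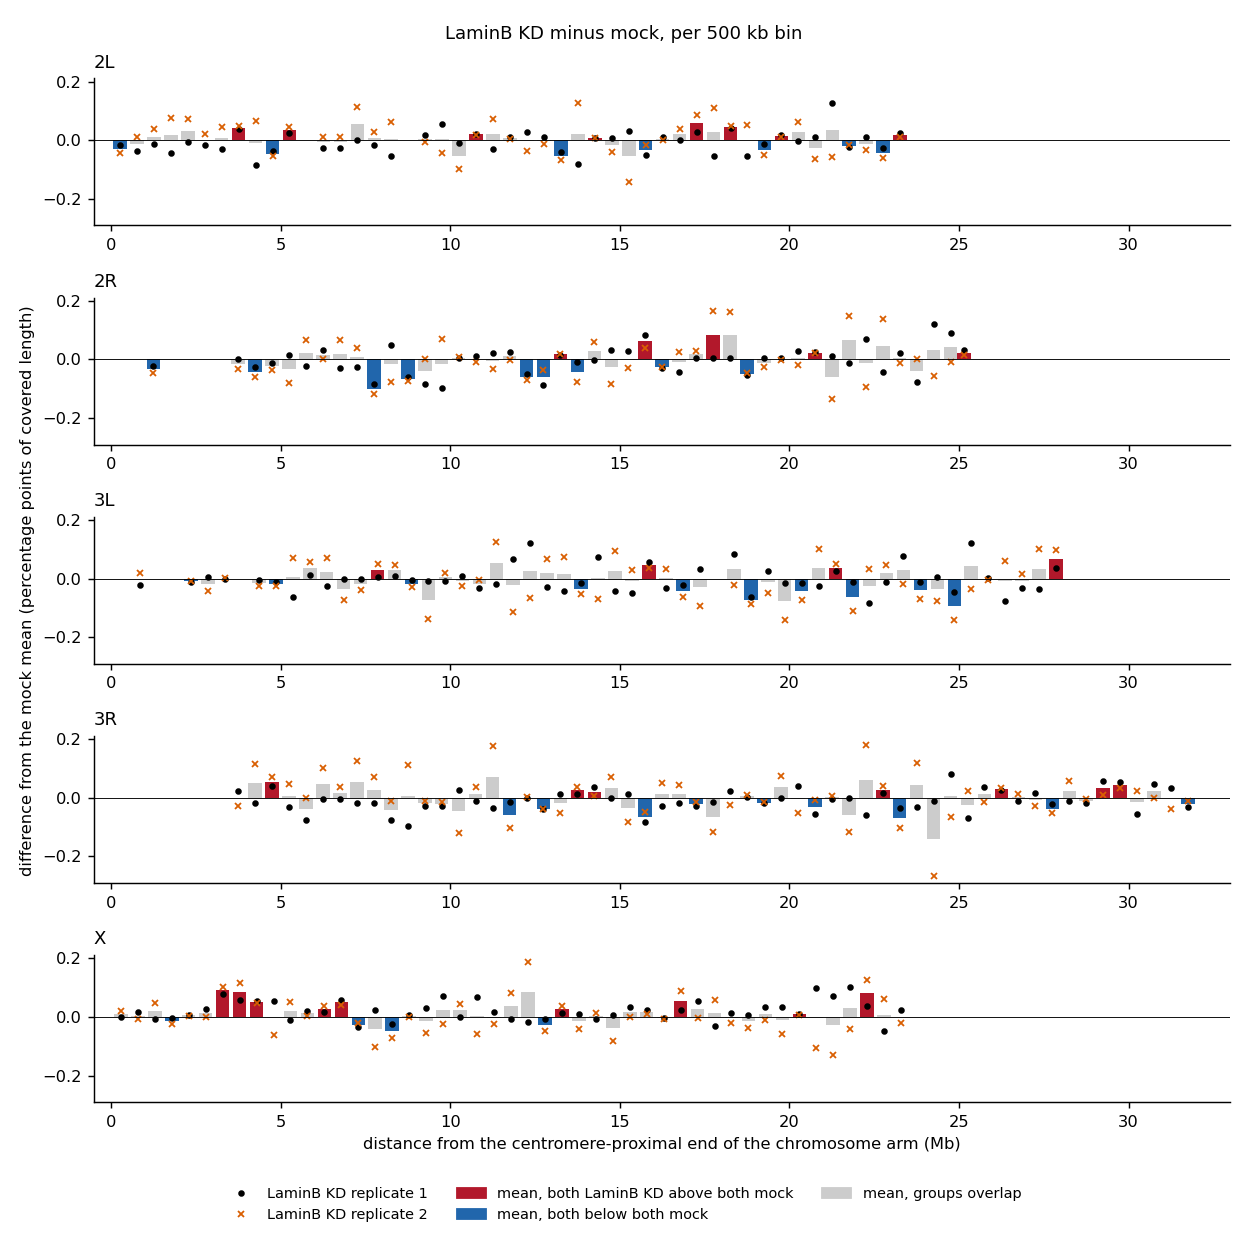
Difference from the mock mean in share of covered length (y axis, percentage points) for each tested 500 kb bin of the 5 large arms, by distance from the centromere-proximal end (x axis, Mb). Bars are LaminB KD means, red where both LaminB KD libraries lie above both mock libraries, blue where both lie below and grey where the groups overlap, and points are the 2 LaminB KD libraries, which often fall on opposite sides of 0.

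The bins higher in LaminB KD included 3 neighbours on X. The bin from 20 to 20.5 Mb held 0.382% and 0.409% of the covered length in LaminB KD, against 0.305% and 0.306% in mock. It was the bin with an unadjusted p under 0.05 by covered length (log2 difference 0.35, SE 0.12, limma adjusted p = 0.987). The adjacent bin from 19.5 to 20 Mb held 1.12% and 1.18% in LaminB KD and 1.03% and 1.09% in mock, the largest mean share of any bin. The bin from 19 to 19.5 Mb, with Naa15-16 and Vav, held 0.420% and 0.414% in LaminB KD and 0.369% and 0.364% in mock. By number of peaks the groups overlapped in all 3 bins. The most covered genes of the first bin were HERC2, which encodes a ubiquitin ligase, and RhoGAP19D. HERC2 was covered over 65.8% and 0% in LaminB KD and 3.32% and 5.55% in mock, and RhoGAP19D over 18.0% and 0.788% in LaminB KD and 0.803% and 9.19% in mock. In both genes the groups overlapped. These gene values, unlike the bin shares, are not scaled to the library's total and cannot be set directly against them. The bin from 19.5 to 20 Mb held Hers, named for repression of histone genes, which was covered over 35.2% and 14.1% in LaminB KD and 27.0% and 28.2% in mock, again with overlap.

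Other higher bins lay on X, 2R and 3L. The X bin from 1 to 1.5 Mb held 0.605% and 0.694% in LaminB KD and 0.580% and 0.559% in mock, and it was also higher by number of peaks. Its most covered genes were su(w[a]), a regulator of splicing, and mei-38, a spindle protein that was covered over its whole length in all 4 libraries. The 2R bin from 17.5 to 18 Mb, with the calcium channel gene Orai and the translation initiation gene eIF3c, held 0.700% and 0.859% in LaminB KD and 0.696% and 0.693% in mock. LaminB KD replicate 1 lay there only just above mock, so that the difference rested on LaminB KD replicate 2. The first bin of 3L, with Tudor-SN and the NURF subunit gene E(bx), held 0.585% and 0.647% in LaminB KD and 0.537% and 0.563% in mock. The 2R bin from 15.5 to 16 Mb, with the ATP citrate lyase gene ATPCL and Mlf, held 0.390% and 0.347% in LaminB KD and 0.295% and 0.318% in mock. ATPCL was covered over 80.9% and 24.1% in LaminB KD and 24.5% and 31.0% in mock, not scaled to the library's total.

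The bins lower in LaminB KD included 2 on 2R. The bin from 7.5 to 8 Mb held 0.990% and 0.956% in LaminB KD and 1.05% and 1.09% in mock, a difference of -0.0994 points. Its most covered gene was ACC, acetyl-CoA carboxylase of fatty acid synthesis, covered over 80.3% and 6.16% in LaminB KD and 47.2% and 77.7% in mock. The bin from 8.5 to 9 Mb held 0.556% and 0.541% in LaminB KD and 0.632% and 0.600% in mock. There, Acsl, a long-chain acyl-CoA synthetase, was covered over 26.8% and 2.77% in LaminB KD and 24.9% and 36.4% in mock, and Sec31, a coat protein of vesicles from the endoplasmic reticulum, over 83.5% and 23.1% in LaminB KD and 76.3% and 77.1% in mock. In each of these 3 genes LaminB KD replicate 1 lay above at least 1 mock library and LaminB KD replicate 2 below both. LaminB KD replicate 1 also has the longest list and LaminB KD replicate 2 the shortest. The gene values are not scaled for this, so that they do not show whether the genes went with their bins.

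Further lower bins lay on 3L and 3R. The 3L bin from 9 to 9.5 Mb, with the metal-responsive factor gene MTF-1 and the cap-binding protein gene eIF4E1, held 0.528% and 0.504% in LaminB KD and 0.597% and 0.585% in mock. The 3L bin from 3 to 3.5 Mb, with sty, an antagonist of receptor tyrosine kinase signalling, and eIF5B, held 0.996% and 0.902% in LaminB KD and 1.07% and 1.01% in mock, but was higher by number of peaks. The 3R bin from 23 to 23.5 Mb, with the transcription factor genes pnt and cnc, held 0.594% and 0.525% in LaminB KD and 0.608% and 0.647% in mock and was lower by number of peaks too. The 3R bin from 15.5 to 16 Mb, with srp and the acetyltransferase complex gene nsl1, held 0.460% and 0.494% in LaminB KD and 0.567% and 0.520% in mock. srp was covered over 61.6% and 19.1% in LaminB KD and 44.5% and 58.4% in mock.

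**Figure D4:**
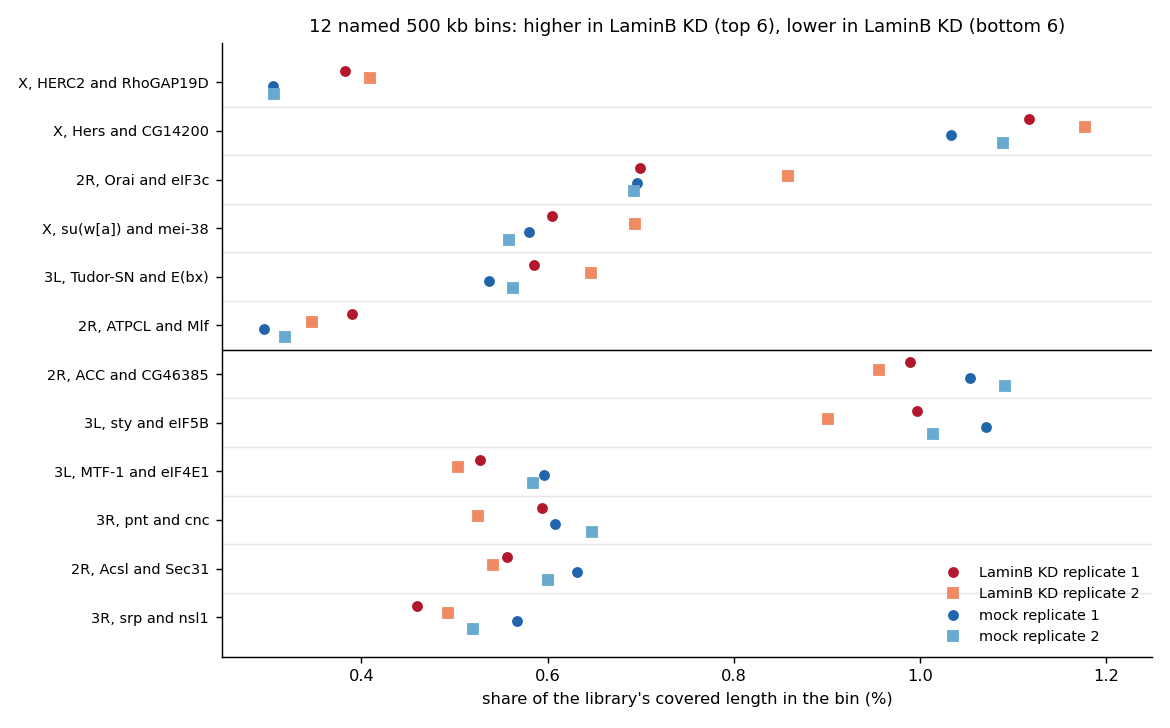
Share of each library's covered length (x axis, percent) in the 6 bins with the largest positive and the 6 with the largest negative difference of group means among bins with separated groups, named by arm and most covered genes. LaminB KD points are drawn above mock points in each row; the gap between the groups is often smaller than the gap between the LaminB KD replicates, as in the bin of Orai and eIF3c.

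The largest difference of group means over all tested bins was in a bin whose groups overlapped. The 3R bin from 24 to 24.5 Mb, with KrT95D and mask, held 0.931% and 0.677% in LaminB KD and 0.925% and 0.963% in mock, a difference of -0.140 points that came from LaminB KD replicate 2. The bins with the next largest gaps between LaminB KD replicates were also on 3R. The bin from 22 to 22.5 Mb, with the pyruvate kinase gene PyK, held 0.415% and 0.654% in LaminB KD and 0.493% and 0.454% in mock, and the bin from 11 to 11.5 Mb, with RpL3, held 0.352% and 0.566% in LaminB KD and 0.382% and 0.395% in mock. In both, LaminB KD replicate 2 stood apart from the other 3 libraries. Of the 5 bins with the largest mean share, the 3L bin from 1.5 to 2 Mb with the spectrin gene alpha-Spec (0.928% and 1.07% in LaminB KD, 1.03% and 0.974% in mock) and the 2R bin from 23.5 to 24 Mb with the calcium pump gene SERCA (0.920% and 0.999% in LaminB KD, 1.02% and 0.982% in mock) overlapped.

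The order of libraries by their whole profile gave the same picture. The share of covered length that would have to be moved between bins to turn 1 profile into another was 8.38% between the LaminB KD replicates and 3.00% between the mock replicates. It was 4.84% and 3.39% between LaminB KD replicate 1 and mock replicates 1 and 2, and 6.18% and 7.31% between LaminB KD replicate 2 and mock replicates 1 and 2. LaminB KD replicate 2, with the shortest list, lay closest to AGO2 KD replicate 1, at 4.56%, which has the next shortest list. The difference between LaminB KD replicate 1 and mock replicate 1 and that between LaminB KD replicate 2 and mock replicate 2, which share no library, had a Pearson r of -0.396 and a Spearman rho of -0.387 over the 248 bins. With the mock libraries exchanged, r was -0.0657 and rho -0.0685. The difference between LaminB KD replicates 1 and 2, set against that between mock replicates 2 and 1, in both cases the longer list minus the shorter, had r = 0.507 and rho = 0.514. The part of list length in these relations was not tested.

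**Figure D5:**
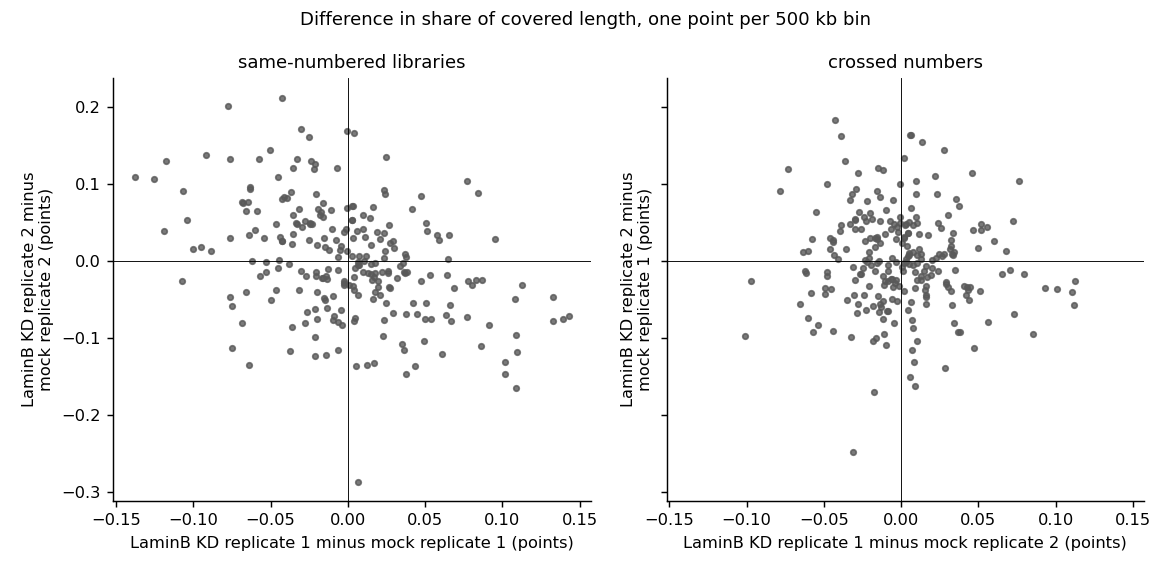
Difference in share of covered length between 1 LaminB KD and 1 mock library (percentage points), for LaminB KD replicate 1 (x axis) and LaminB KD replicate 2 (y axis), with 1 point for each of the 248 bins. Mock libraries of the same number are subtracted on the left (r = -0.396) and of the other number on the right (r = -0.0657), and neither cloud runs along the rising diagonal. The 2 LaminB KD libraries have the longest and the shortest list, and the part of list length in the clouds was not tested. The plot therefore does not decide whether the LaminB KD replicates share a smaller difference.

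By covered length, the bins of the Hox complexes, the histone gene cluster and chromosome 4 overlapped between the groups. The 3R bin that holds the Hox genes lab to Antp, from 6.5 to 7 Mb, held 0.0639% and 0.104% in LaminB KD and 0.0742% and 0.0623% in mock. The bin that holds Ubx to Abd-B, from 16.5 to 17 Mb, held 0.115% and 0.175% in LaminB KD and 0.139% and 0.125% in mock. This bin had 14 and 7 peaks in LaminB KD and 14 and 15 in mock. As a share of the library's peaks it was lower in both LaminB KD libraries (log2 difference -0.458, limma adjusted p = 0.997). Of the 8 Hox genes, which set segment identity, 3 and 1 had a peak in LaminB KD and 1 and 2 in mock, and pb, Scr, Antp, Ubx and abd-A were at 0 in all 4 libraries. The histone cluster on 2L fell in the bins from 21 to 21.5 and from 21.5 to 22 Mb, with 71 and 40 histone genes. These bins held 0.395% and 0.472% and 0.154% and 0.274% of the covered length in LaminB KD, against 0.416% and 0.386% and 0.217% and 0.178% in mock, each pair in the order of replicates 1 and 2. By number of peaks the bin from 21.5 to 22 Mb was higher in both LaminB KD libraries (0.199% and 0.215%, against 0.186% and 0.168% in mock). The 2L bin from 5 to 5.5 Mb, outside the cluster and with 1 gene of a histone symbol, held 0.288% and 0.296% in LaminB KD and 0.237% and 0.258% in mock, without overlap. The histone genes are near-identical copies, and the study's methods removed reads that map to several places. The cluster itself may thus hold few of the reads behind these values. The most covered genes were del and crc in the bin from 21 to 21.5 Mb and eEF2 and Df31 in that from 21.5 to 22 Mb.

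Chromosome 4 was followed gene by gene because of its chromatin. Its RpS3A, a ribosomal protein gene, was covered over 63.5% and 55.2% in LaminB KD and 59.0% and 60.2% in mock. ATPsynbeta, a subunit of ATP synthase, was covered over 80.6% and 49.1% in LaminB KD and 79.4% and 79.4% in mock. The developmental regulators ci and ey were at 0 in all 4 libraries, and the transcription factor gene zfh2 was covered over 35.6% and 12.8% in LaminB KD and 18.5% and 27.8% in mock. Of 80 protein-coding genes of this chromosome, 43 and 18 had a peak in LaminB KD and 35 and 34 in mock.

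Over all 13968 protein-coding genes, both LaminB KD libraries covered more of the gene than both mock libraries in 22 (0.158%) and less in 182 (1.3%). These gene values are not scaled to the library's total. LaminB KD replicate 2 covered the least in total, and LaminB KD replicate 1 the most. A gene could lie lower only where the longest list also fell short, and higher only where the shortest list also exceeded both mock libraries. The counts of 22 and 182 therefore give no balance of gain and loss. Of the 219 pericentromeric genes, 0 lay higher and 7 lower (3.20%), which were CG40228, Vps11, alpha-Cat, CG40470, IntS3, CG17162 and cta. Of these, 4 were among the 37 pericentromeric genes of 3L. The gap was large only in Vps11, a subunit of vacuolar tethering complexes, which was covered over 0% and 0% in LaminB KD and 32.3% and 30.5% in mock. It was small in IntS3 (10.6% and 8.19% in LaminB KD, 11.6% and 11.5% in mock). Of the 80 genes of chromosome 4, 0 lay higher and 3 lower (3.75%), which were myo, CG33941 and Slip1. By arm, the share of genes lower in both LaminB KD libraries was between 1.00% on X and 1.64% on 3L on the 5 large arms, and 1.09% in the gene-richest and 1.21% in the gene-poorest class.

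Clusters of tissue-specific genes, a class of sequence known for lamina contact, were mostly without peaks in either group. Of 364 genes of 8 families (Osi, Twdl, Gr, Or, Ir, Obp, Jon and Cpr), 25 and 8 had a peak in LaminB KD and 16 and 16 in mock. The 23 Twdl genes, which encode cuticle proteins, and the 16 Jon genes, which encode gut proteases, had no peak in any of the 4 libraries. Of the 60 gustatory receptor genes (Gr), 7 and 2 had a peak in LaminB KD and 5 and 5 in mock, and of the 59 odorant receptor genes (Or), 4 and 0 in LaminB KD and 2 and 2 in mock. Both LaminB KD libraries lay above both mock libraries in 1 of the 364 genes, the odorant-binding protein gene Obp46a (42.8% and 22.5% in LaminB KD, 18.8% and 21.5% in mock), and below in 1, Gr61a (14.1% and 0% in LaminB KD, 14.9% and 18.2% in mock), beside 0.158% and 1.3% of all genes. Several genes of these families carried a peak in LaminB KD replicate 1 alone, such as Or2a (82.7%), Obp19d (33.9%) and Cpr67Fb (46.6%). LaminB KD replicate 2 did not cover these genes. Of 88 ribosomal protein genes, 82 and 79 had a peak in LaminB KD and 81 and 81 in mock, and 0 lay higher and 0 lower in both LaminB KD libraries.

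Base by base, 111 stretches of 7.31 kb in all lay under peaks in both LaminB KD libraries and in neither mock library. In the opposite direction, 951 stretches of 55.1 kb lay under peaks in both mock libraries and in neither LaminB KD library. The first kind had to lie under LaminB KD replicate 2, the shortest list, and the second outside LaminB KD replicate 1, the longest. Without LaminB KD replicate 2 the first kind was more frequent, with 11851 stretches against 951. Without LaminB KD replicate 1 the second was, with 10746 against 112. The 2 counts therefore give no balance of gain and loss. Most were edges of shared peaks, with a median length of 24 and 19 bp, and 9 and 60 of them reached 200 bp. The longest of the first kind lay in CG32432 on 3L (629 bp), in cnn, a gene of the centrosome, on 2R (531 bp), in CG15097 on 2R (456 bp), in CG1677 on X (426 bp) and in Tim17b on 3R (300 bp). Both replicates had folds of 3.27 and 3.35 at CG32432. The longest of the second kind lay in Acsl on 2R (895 bp), in Vps11 on 3L (859 bp), in sea and fabp on 3R (783 bp), in KrT95D on 3R (765 bp) and in LPCAT on X (741 bp), with folds between 2.37 and 4.61 in the mock libraries. The Vps11 stretch also overlaps the antisense RNA gene asRNA:CR45164, from which it cannot be told apart here. Stretches of the first kind fell in 85 bins and of the second in 241 bins, on all 5 large arms, and only the second kind was found on chromosome 4, with 6 stretches.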

How the data were processed

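Pol II S5 was measured by ChIP-seq in 2 LaminB KD and 2 mock libraries of Kc167 cells, grouped by their labels. Per the labels, the authors trimmed reads with cutadapt 1.10, aligned them to dm6 with Bowtie2, marked duplicates with Picard 2.11.0 and called regions with MACS2 2.1.1.20160309. As the study's methods state, multimapping reads and duplicates were removed, and broad peaks were called on single replicates. Reads from repeated sequence, also near the centromeres, are therefore mostly missing from the lists. The series holds an input for each library. The deposited score, the deposited fold over local background (a ratio) and the −log10 p and q-values that the authors deposited are averages over a region. Without read counts, the authors' test with DiffBind was not run, and depth is unknown. A deeper or cleaner library gives more and wider peaks, and the lists are not scaled to each other.

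Covered length (bases under peaks) and number of peaks (by midpoint) were taken per 500 kb bin and per region as percent of the library's own total. Regions were compared by the exact two-sided permutation test, and bins with a mean of 5 or more peaks by limma 3.58.1 (R 4.3.3, trend) on log2(percent + 0.02) with Benjamini-Hochberg adjustment. The limma step was run on simulated data with the spread of the mock replicates only. Its power at the wider spread between the LaminB KD replicates was not tested. A gene or bin is called higher or lower where the groups do not overlap. Protein-coding genes came from the Ensembl annotation (BDGP6.54, release 115), and sequences from RefSeq. Bins named are the 6 with the largest difference in each direction among those with separated groups, the 5 with the largest share, and those of Lam, Hox, histone and pericentromeric genes and chromosome 4, with their 2 most covered genes. Bins added to the text for their replicate gaps or their neighbours (19 to 19.5 Mb of X and 3 bins of 3R), and family, ribosomal, Vps11 and RpL5 examples, were chosen after their values were seen. The members and lists were chosen with earlier results of these data known. The symbols Thd1 and nos matched no annotated gene. Alternatives were equal peak numbers, the upper 50% of peaks by score (ties by q-value), other bin sizes and starts, other constants, a replicate block and leaving out each library.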

Additional observations from a re-analysis of the deposited data

Results flagged for a closer look

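Chromosome Y, which holds no tested bin and which the labels' female cell line should lack, carried 2 peaks in LaminB KD replicate 1 and 0 in LaminB KD replicate 2, in both mock and in both AGO2 KD libraries. It was singled out as a signal outside the bins compared that the mock libraries did not show. The peaks were 242 and 252 bp wide with folds of 1.98 and 2.59, both below the median fold of 2.81 of that library, and 1 lay in Ppr-Y. LaminB KD replicate 1 has the longest list of the series (8541 peaks). The part of list length in these peaks was not tested.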

How the results depend on the processing

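The pericentromeric difference stayed negative, and the telomeric and X differences positive, under each alternative run, with ranges on leaving out a library of -0.356 to -0.145, 0.157 to 0.243 and 0.121 to 0.994 points. In the pericentromeric sequence, at the telomeric ends, on 2R and on 3L the groups were separated. Leaving out a library could not change the sign there, and the pericentromeric and telomeric ranges give only the size of the difference. The 2R difference was 0.318 with the upper 50% of peaks by score, and that of 3L 0.372 by number of peaks. The other differences changed sign. The 2L difference was -0.00818 with equal peak numbers, -0.588 with the upper 50% of peaks and -0.273 to 0.430 on leaving out a library. That of 3R was 0.0386 with equal peak numbers and -0.520 to 0.255 on leaving out a library. That of chromosome 4 was 0.0693 with the upper 50% of peaks and -0.0681 to 0.0215 on leaving out a library, and that of the gene-poor bins -0.0691 with equal peak numbers and -0.416 to 0.790 on leaving out a library. The causes were not tested.

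Bins called numbered 62 higher and 73 lower with 250 kb bins and 18 and 17 with 1 Mb bins, which change the number of bins tested. With equal peak numbers 32 were higher and 42 lower, of which 20 and 20 were among the 33 and 39 called first. With the upper 50% of peaks 37 were higher and 55 lower, of which 9 and 16 were shared. On leaving out a library, 55 to 105 were higher and 58 to 112 lower, since fewer libraries have to be separated. limma called 65 bins without LaminB KD replicate 1, 4 without LaminB KD replicate 2 and 0 without either mock library, where the lone LaminB KD library is assumed to vary like the mock libraries. Gained stretches numbered 196 with equal peak numbers and 9 at 200 bp or more, and lost stretches 810 and 60. Without LaminB KD replicate 2, 11851 were gained and 951 lost, and without LaminB KD replicate 1, 112 and 10746. Without mock replicate 1 the counts were 169 and 3477, and without mock replicate 2, 670 and 1289. Samples share only a replicate number: same-numbered LaminB KD and mock libraries deviated in opposite directions (r = -0.484 over 248 bins), and with the replicate block 41 bins were higher in both pairs, 49 lower, and limma called 0. The crossed replicate block, added after seeing the data, gave 60 higher, 63 lower and 0 by limma. The exact permutation test of 2 libraries against 2 cannot pass 0.05 for a single region.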
